A study of Mus musculus with 12 samples.

Results

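RNAseq of the striatum and cortex of R6/2 mice was examined for 33 genes that mark microglia, the resident macrophages of the brain. The genes were taken as a list of symbols, among them receptors that resting microglia carry, Fc receptor chains, the C1q complement subunits, lysosomal proteases and lineage transcription factors. All 33 symbols were among the 23282 gene rows of the count tables, and none was listed more than once. With the filter on low counts, 32 of the 33 were tested, and the exception was Csf3r, the receptor for granulocyte colony-stimulating factor, which had between 0 and 5 counts in a library. The list was chosen without a measured value as a criterion, although earlier results of the same data were known when it was drawn up. The counts of called genes in the list, and the separate tests of Fcrls, are therefore not independent of those results.

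R6/2 mice (HD) carry exon 1 of the human HTT gene with an expanded CAG repeat, and littermates without the transgene were the WT controls. Post-symptomatic mice were 13 weeks old and pre-symptomatic mice were 8 weeks old, and striatum (STR) and cortex (CTX) were sequenced separately. Each of the 4 HD groups (13-week STR, 13-week CTX, 8-week STR and 8-week CTX) had 2 libraries, and each of the 4 WT groups had 1. The labels do not say whether the striatum and cortex of one number came from 1 mouse, nor give a strain background or a batch. If the regions shared mice, each WT age was 1 mouse and each HD age 2, although the main edgeR tests counted libraries as separate. The ages were different mice, so that age and set of mice cannot be told apart. In each HD group 1 library was from a male and the other from a female, so that the spread between replicates includes that of sex. No WT group had a second library, so that no variation among WT mice within a group could be measured.

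Microglia keep their numbers through the CSF1 receptor and watch their surroundings with receptors for nucleotides and for the neuronal chemokine fractalkine. They take up debris through TREM2, Fc receptors and complement, and digest it in lysosomes rich in cathepsins. When microglia turn from surveillance to a reactive state, they are known to lower P2ry12, Tmem119 and related surface genes and to raise lysosomal and lipid-handling genes. In bulk tissue, fewer microglia and less RNA per microglial cell cannot be told apart.

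The libraries held between 8814386 and 12091201 counts. They were made from 3′ ends, so that 1 read stood for 1 transcript end whatever the gene's length, and levels are given as CPM, the read count scaled to library size with TMM factors. Counts of Xist and Y-linked genes showed the first replicate of every HD group to be male and the second female, the 13-week WT libraries to be female and the 8-week WT libraries to be male. The ribosomal precursor Rn45s took 10.5 to 15.2% of the counts in HD libraries and 4.32 to 5.62% in WT libraries. Striatal neuron markers summed to between 1386 and 7737 CPM in the STR libraries and to at most 373 CPM in the CTX libraries. A pair of libraries stood apart. The second 8-week HD striatum held 21640 CPM of oligodendrocyte markers, against at most 7584 in any other library, and 961 CPM of choroid plexus markers. The second 13-week HD cortex held 3024 CPM of choroid plexus markers, against at most 126 CPM in the other 10 libraries. Every comparison was therefore repeated without both.

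The labelled tissue held microglial transcripts in every library. The 33 genes summed to between 525 and 901 CPM, and 32 of them were detected in all 12 libraries. Csf3r was at 0 counts in 3 libraries, which allows up to 0.321, 0.265 and 0.255 CPM there for a floor of 3 counts. Markers of macrophages at the brain's borders, such as Mrc1 and Lyve1, summed to between 7.03 and 27.5 CPM, and markers of blood monocytes, neutrophils and lymphocytes to between 2.11 and 9.04 CPM, with 3 of 12 of the latter listed at 0 in every library.

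The upstream sequence of 4 genes whose level differed between groups is shown because microglial genes are known to be controlled by the factor PU.1, whose binding sites hold the core GAGGAA. The stretches are the parts of RefSeq promoter windows (build GRCm38.p6, the assembly called mm10, from 250 bases before to 50 after the start) that lie upstream of the RefSeq start and outside annotated exons, and capitals mark GAGGAA or its reverse complement TTCCTC. The stretch of Fcrls nevertheless lies inside the gene as GENCODE M21 annotates it, in an intron of a transcript that starts further upstream, whereas those of C1qc, Ctss and Aif1 end at the edge of the annotated gene.
Fcrls, chr3:87263600-87263677, minus strand: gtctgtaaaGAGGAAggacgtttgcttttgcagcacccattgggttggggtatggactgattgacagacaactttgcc
C1qc, chr4:136893066-136893164, minus strand: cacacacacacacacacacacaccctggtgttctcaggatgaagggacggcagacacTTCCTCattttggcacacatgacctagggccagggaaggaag
Ctss, chr3:95526536-95526785, plus strand: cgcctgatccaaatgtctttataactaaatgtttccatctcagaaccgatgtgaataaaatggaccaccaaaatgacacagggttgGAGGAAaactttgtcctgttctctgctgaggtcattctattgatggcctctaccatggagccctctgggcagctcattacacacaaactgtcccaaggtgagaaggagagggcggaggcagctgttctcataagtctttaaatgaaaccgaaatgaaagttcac
Aif1, chr17:35176069-35176302, minus strand: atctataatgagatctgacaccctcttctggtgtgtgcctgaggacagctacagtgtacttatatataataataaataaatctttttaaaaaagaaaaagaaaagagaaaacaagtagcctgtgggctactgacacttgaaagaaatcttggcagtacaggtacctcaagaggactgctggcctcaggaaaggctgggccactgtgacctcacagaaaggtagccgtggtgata
The stretches of Fcrls, C1qc and Ctss held the core 1 time each, and that of Aif1 held it 0 times, although the whole window of Aif1 did hold it. Over whole windows, 25 of the 33 genes had an entry and 16 of the 25 held the core on either strand. Counted by window, 17 of 31 windows of these genes held it (54.8%), against 28.3% of the 32851 windows of all genes. A match describes letters and is no evidence of binding.

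Fcrls, an Fc receptor-like scavenger receptor that is known as a microglia marker in the mouse, was far lower in 13-week than in 8-week mice, in WT as well as HD mice and in both regions. The gene (ENSMUSG00000015852.13) lies at chr3:87250758-87263738 on the minus strand of GRCm38 in the GENCODE M21 annotation, and its exons overlap those of no other annotated gene. At 8 weeks, striatal Fcrls was at 18.0 CPM in WT and at 16.6 and 18.4 CPM in HD. At 13 weeks, the striatal levels were 2.1 CPM in WT and 1.12 and 1.28 CPM in HD. The striatal libraries of the ages were thus separated by a wide gap, with both genotypes on the same side of it.

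At 8 weeks, cortical Fcrls was at 18.1 CPM in WT and at 16.9 and 22.0 CPM in HD. At 13 weeks, the cortical levels were 3.47 CPM in WT and 1.12 and 2.47 CPM in HD. The 6 libraries at 13 weeks lay between 1.12 and 3.47 CPM, and the 6 at 8 weeks between 16.6 and 22.0 CPM, so that no libraries of different ages overlapped. The counts behind these levels were 12 to 41 at 13 weeks and 142 to 213 at 8 weeks. Males and females were on both sides of the gap, since HD libraries of both sexes were present at each age. Of the 14706 genes tested over the 12 libraries, 0.381% were separated by age in this way, and of the 32 microglia genes 1, Fcrls.

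**Figure D1:**
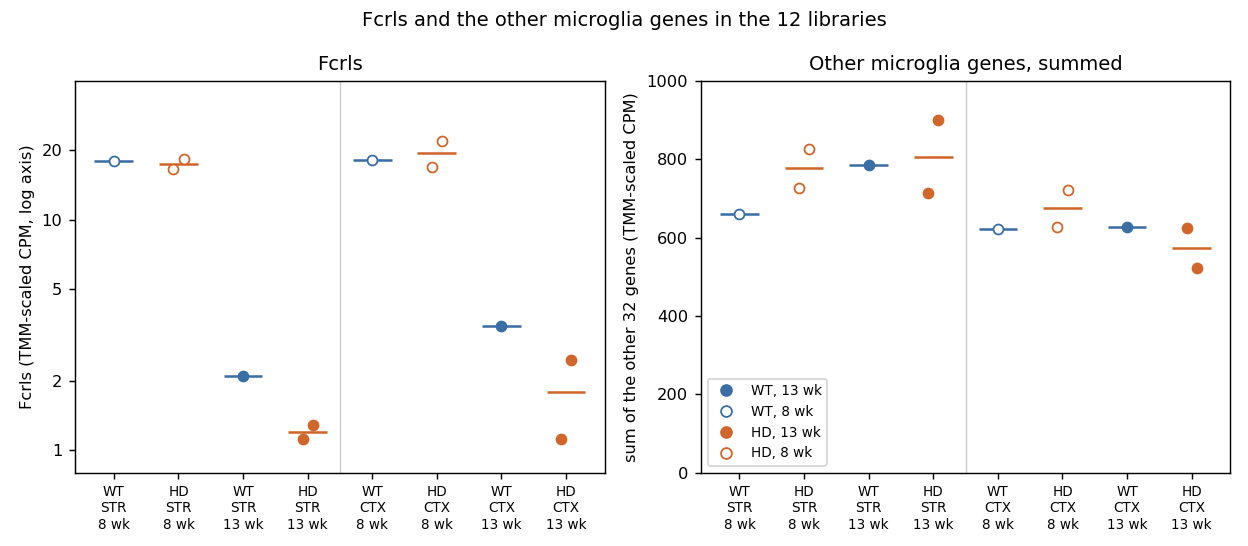
Fcrls (left, log axis) and the sum of the other 32 microglia genes (right, axis from 0), in TMM-scaled CPM, for each of the 12 libraries by genotype, region and age. Points are libraries and bars are group means. Fcrls lies between 16.6 and 22.0 CPM in all 8-week libraries and between 1.12 and 3.47 CPM in all 13-week libraries, while the sums of the other genes overlap between the ages.

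In HD mice the fall of Fcrls from 8 to 13 weeks was 12.3-fold, with a log2 fold change of -3.62 (SE 0.288, adjusted p = 0.000306, edgeR quasi-likelihood test with Benjamini-Hochberg adjustment over 14392 genes, 4 against 4 libraries). The log2 fold change was -3.82 in striatum (SE 0.433, adjusted p = 0.0141) and -3.44 in cortex (SE 0.411, adjusted p = 0.0168) with edgeR. The changes in the regions differed by -0.39 on the log2 scale (SE 0.576, adjusted p = 1.0 with edgeR). An exact two-sided permutation test of Fcrls over the HD libraries, with age permuted within region, gave p = 0.0556. This is the smallest value its 36 arrangements allow, and the gap between the ages in each region fixed it in advance. The arrangements treat the regions as separate mice, which the labels leave open. Shared mice would allow fewer arrangements and a larger smallest p. The value over both regions lay between -3.94 and -3.45 when 1 HD library at a time was left out, and stayed past the threshold. The call in striatum was lost in 4 of these 8 fits and that in cortex in 4, with adjusted p of up to 0.197 and 0.242.

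In WT mice the fall was 6.57-fold, with a log2 fold change of -2.72 (SE 0.361, adjusted p = 0.0413, edgeR over 14706 genes, 2 against 2 libraries). The 2 libraries of an age were its striatum and its cortex, which may have come from 1 mouse. In that case the test sets 1 mouse against 1, and its SE holds no variation among mice. In the WT comparison 0.0136% of all genes were called, which is 2 genes, and the other was 4632415L05Rik (log2 fold change 1.68), which also lies on chromosome 3. The WT call rested on every WT library. Without the 13-week WT striatum the log2 fold change was -2.50 with an adjusted p of 1.0, and without the 13-week WT cortex, the 8-week WT striatum and the 8-week WT cortex the adjusted p was 0.427, 0.55 and 0.23. Counting HD libraries too, the call was lost in 10 of the 12 fits that left out a library, with log2 fold changes from -2.98 to -2.50. The WT ages also differed in sex, and with sex as a term the log2 fold change was -3.14 (adjusted p = 0.0779, edgeR).

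Subtracting the WT from the HD change of Fcrls gave -0.91 on the log2 scale (SE 0.437, adjusted p = 0.583, edgeR). At 8 weeks the HD and WT levels differed by a log2 fold change of 0.03 (SE 0.281, adjusted p = 0.981). At 13 weeks the HD level was below that of WT in each region, by a log2 fold change of -0.88 (SE 0.332, adjusted p = 0.131). That comparison passed the threshold without the second 13-week HD cortex, the library with choroid plexus markers, at -1.21 (adjusted p = 0.0457, edgeR), and without both libraries that stood apart, at -1.20 (adjusted p = 0.0363).

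The other microglia genes did not share the fall of Fcrls. Their summed level lay between 522 and 900 CPM in the 13-week libraries and between 623 and 828 CPM in the 8-week libraries, so that the ages overlapped. The log2 ratio of the mean sums, 13 over 8 weeks, was -0.01 with TMM scaling and 0.13 with raw library totals. This ratio pools genotypes that moved in opposite directions. The median sum was 669 CPM at 13 weeks and 725 CPM at 8 weeks in HD mice, and 707 and 642.5 CPM in WT mice. Fcrls made up 2.18 to 2.95% of the summed level of the 33 genes at 8 weeks and 0.143 to 0.55% at 13 weeks. The log2 ratio of Fcrls to the sum of the other genes changed by -3.36 from 8 to 13 weeks, and its log2 level less their median log2 level (CPM + 1) by -2.77.

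In the comparison of HD mice at 13 and 8 weeks, 1 of the 32 genes was called, Fcrls, against 6.19% of all genes tested. Of the other 31, 8 had a positive and 23 a negative log2 fold change, with a median of -0.22 against 0.00 over all genes, and the smallest adjusted p among them was 0.0812. In the same comparison within striatum 1 of 32 was called (0.16% of all genes), and within cortex 1 of 32 (0.591% of all genes), in both cases Fcrls. The median of the other 31 was -0.02 in striatum and -0.35 in cortex. Summed markers of some other cells, astrocytes and red blood cells among them, were lower at 13 weeks in HD mice as well. Endothelial markers were not. In striatum they were at 194 and 259 CPM at 13 weeks and 171 and 250 CPM at 8 weeks, and in cortex at 201 and 238 CPM and at 204 and 200 CPM. The 10 astrocyte markers summed to between 3163 and 3587 CPM in the HD libraries at 13 weeks and between 4597 and 6055 CPM at 8 weeks, without overlap. Their median log2 fold change was -0.41 over both regions, -0.29 in striatum and -0.50 in cortex. Over both regions 1 of the 10, Slc1a2, was called with edgeR (5 at an unadjusted p under 0.05, against 22.2% of all genes). Slc1a2 alone held 1224 to 1907 CPM of the HD sums at 13 weeks and 2092 to 3712 CPM at 8 weeks. The gap between the sums therefore depends on this gene, and no sum was taken without it. The 5 red blood cell markers were lower at 13 weeks within each region, at 346 and 74.1 against 403 and 1320 CPM in striatum and at 519 and 64.7 against 642 and 1673 CPM in cortex, with a median log2 fold change of -2.09. The part of these markers in the values of the microglia genes was not tested. No microglia gene had a change that differed between the regions with edgeR (0 of 32, with 4 at an unadjusted p under 0.05), nor with DESeq2 or voom. Over all genes 0.0% were called with edgeR, with 519 at an unadjusted p under 0.05, 15 called with DESeq2 and 0 with voom.

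In WT mice 21 of the other 31 genes had a positive log2 fold change with age and 10 a negative one, with a median of 0.16 against -0.01 over all genes. The HD change less the WT change was negative for 25 of the 31 and positive for 6, with a median of -0.38 against -0.01 over all genes. None of the 32 passed the threshold for that difference with edgeR, DESeq2 or voom, and 0.116% of all genes did with edgeR. At an unadjusted p under 0.05 there were 3 of the 32, against 8.92% of all genes.

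**Figure D2:**
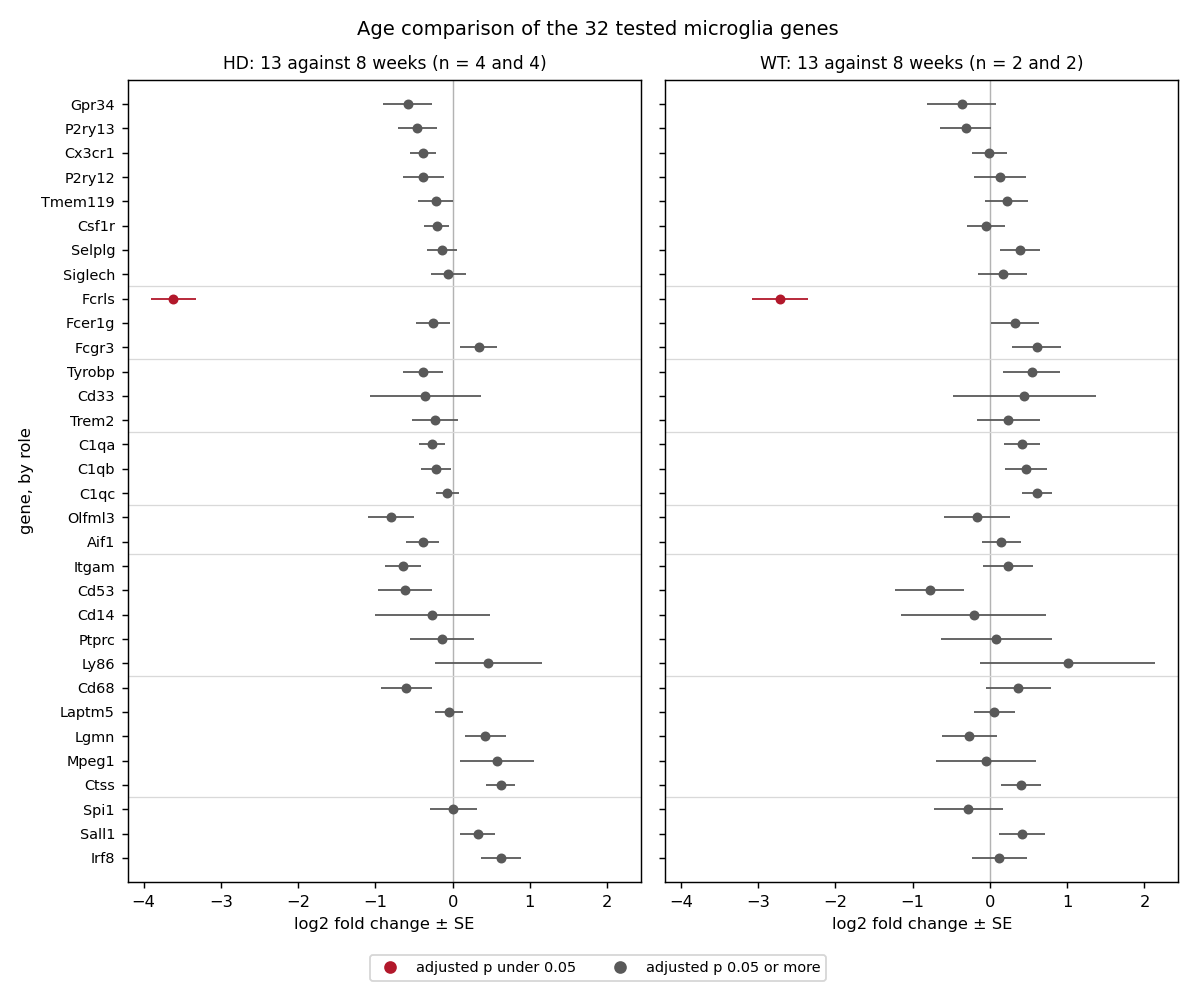
Log2 fold change from 8 to 13 weeks of the 32 tested microglia genes in HD mice (left, 4 against 4 libraries) and WT mice (right, 2 against 2 libraries), grouped by role with lines between the groups. Bars are standard errors from the edgeR fit and red points have an adjusted p under 0.05. Fcrls, at -3.62 and -2.72, is the red point in each panel, and the other genes lie between -0.80 and 0.62 in HD mice.

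Among the receptors and surface proteins of resting microglia, 9 genes in the list and 8 tested, none was called with age or genotype with edgeR, DESeq2 or voom. Over all genes edgeR called 6.19% with age in HD mice, and 7.36 and 2.1% between HD and WT mice at 13 and 8 weeks. At an unadjusted p under 0.05, 1 of the 8 differed with age in HD mice, against 22.2% of all genes. Between HD and WT mice at 13 weeks 4 of the 8 did, against 22.3% of all genes. Csf1r, the receptor for CSF1 and IL-34, was at 121 and 126 CPM in the 13-week HD striatum and at 121 and 144 CPM in the 8-week HD striatum. In cortex it was at 111 and 67.4 CPM at 13 weeks and at 100.3 and 125 CPM at 8 weeks, and its WT libraries lay between 116 and 146 CPM. The low value was that of the 13-week HD cortex with choroid plexus markers. The last 500 bases of Csf1r overlap an exon of Hmgxb3 on the opposite strand, and since the strand rule of the counting is not given, reads of the pair cannot be told apart.

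Cx3cr1, the fractalkine receptor, was at 103 and 115 CPM in the 13-week HD striatum, at 94.7 and 55.6 CPM in the 13-week HD cortex, at 130 and 133 CPM in the 8-week HD striatum and at 94.1 and 122 CPM in the 8-week HD cortex. Its WT libraries lay between 114 and 134 CPM. Between HD and WT mice at 13 weeks, Cx3cr1 differed by a log2 fold change of -0.45 (SE 0.196, adjusted p = 0.201, edgeR).

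Although no single receptor passed the test, most lay to one side of WT at 13 weeks. For P2ry12 and P2ry13, which sense nucleotides, Tmem119, Cx3cr1, Csf1r, Selplg and Gpr34, all 4 HD libraries at 13 weeks were below the WT library of their region, and Siglech was the exception among the 8. Of all 32 genes 11 were below in this way, against 22.6% of all genes tested. P2ry12 was at 16.0 and 10.3 CPM in the 13-week HD striatum against 22.9 CPM in WT, and at 7.13 and 9.54 CPM in the cortex against 14.7 CPM in WT. Its log2 fold change at 13 weeks was -0.81 (SE 0.286, adjusted p = 0.112, edgeR), and that of Tmem119 was -0.55 (SE 0.238, adjusted p = 0.195). The median over the 8 receptors was -0.50 at 13 weeks and -0.11 at 8 weeks, against 0.01 and -0.01 over all genes. At 13 weeks it was -0.44 with sex as a term and -0.32 without both libraries that stood apart. A side is set by 1 WT library per region and age, and 44.0% of all genes had their 4 HD libraries at 13 weeks on one side of WT, higher or lower, as had 17 of the 32. Summed astrocyte markers lay below WT too, at 3163 and 3587 CPM in the 13-week HD striatum against 3843 CPM and at 3447 and 3533 CPM in the cortex against 4622 CPM. Slc1a2 alone held 1224 and 1359 CPM of these sums in HD striatum against 1858 in WT, and 1747 and 1907 CPM in HD cortex against 2339 in WT. Red blood cell markers were below WT as well, at 346 and 74.1 CPM against 720 CPM in striatum and at 519 and 64.7 CPM against 802 CPM in cortex. In each region the markers of its own neurons were also lower than in WT. Endothelial markers lay above WT, at 194 and 259 CPM against 189 CPM in striatum and at 201 and 238 CPM against 197 CPM in cortex. The part of these markers in the side of the receptors was not tested.

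Of the Fc receptor chains other than Fcrls, neither was called with age or genotype. Fcer1g, the signalling chain shared by Fc receptors, was at 8.67 and 12.4 CPM in the 13-week HD striatum, at 14.9 and 8.92 CPM in the 13-week HD cortex, at 15.0 and 14.3 CPM in the 8-week HD striatum and at 11.8 and 13.1 CPM in the 8-week HD cortex. Its WT libraries lay between 8.34 and 13.5 CPM. Fcgr3, the low-affinity IgG receptor, was between 9.48 and 15.1 CPM at 13 weeks and between 6.72 and 13.0 CPM at 8 weeks. With age, Fcgr3 differed by a log2 fold change of 0.34 in HD mice (SE 0.237) and 0.60 in WT mice (SE 0.32), with edgeR adjusted p of 0.451 and 1.0. Both chains overlapped between the ages. In the family of Fc receptors and Fc receptor-like genes, 5 of 11 were tested and Fcrls was the 1 called with age.

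The TREM2 receptor and its partner DAP12, encoded by Tyrobp, were at 4.21 to 9.26 CPM and 6.06 to 14.3 CPM over the 12 libraries. At 13 weeks, Tyrobp was at 6.06 and 13.9 CPM in HD striatum against 12.1 CPM in WT, and at 8.25 and 11.5 CPM in HD cortex against 10.2 CPM in WT. The level was higher in the 4 HD libraries at 8 weeks, between 11.6 and 14.3 CPM, than in WT, with 6.23 CPM in striatum and 9.01 CPM in cortex, but its log2 fold change of 0.77 did not pass the test (SE 0.327, adjusted p = 0.308, edgeR). Trem2 differed by 0.02 in the same comparison. Cd33, an inhibitory sialic acid-binding lectin, had 3 to 17 counts in a library so that moderate differences were not detectable at this depth.

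C1qc was higher in HD than in WT mice at 8 weeks. C1qa, C1qb and C1qc encode the chains of C1q, which starts the classical complement pathway and tags synapses for removal. In striatum, C1qc was at 37.1 and 44.4 CPM in the 8-week HD libraries and at 19.99 CPM in WT. In cortex, it was at 42.0 and 36.8 CPM in HD and at 17.3 CPM in WT, so that the 4 HD libraries were above both WT libraries. This was a log2 fold change of 1.11 (SE 0.175, adjusted p = 0.00945, edgeR). C1qc was the 1 of 32 genes called at 8 weeks, against 2.1% of all genes. The call was lost without the 8-week WT striatum (log2 fold change 1.10, adjusted p = 0.148) and without the 8-week WT cortex (1.12, adjusted p = 0.0613).

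The other chains lay the same way at 8 weeks without passing the test. C1qa was at 53.9 and 67.6 CPM in HD striatum against 35.3 CPM in WT, and at 41.7 and 45.7 CPM in HD cortex against 31.1 CPM in WT, with a log2 fold change of 0.63 (SE 0.205, adjusted p = 0.17, edgeR). C1qb had a log2 fold change of 0.74 (SE 0.24, adjusted p = 0.171, edgeR). At 13 weeks, C1qc was at 38.8 and 47.2 CPM in HD striatum against 31.7 CPM in WT, and at 35.7 and 31.2 CPM in HD cortex against 25.4 CPM in WT. C1qa was at 39.3 and 65.1 CPM in HD striatum against 52.8 CPM in WT, and at 32.2 and 36.7 CPM in HD cortex against 37.2 CPM in WT. At that age the 3 chains had log2 fold changes of -0.06, 0.06 and 0.42 for C1qa, C1qb and C1qc, HD against WT, none called.

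The levels of C1q in HD libraries overlapped between the ages, and the WT libraries were the ones that lay lower at 8 weeks. The summed C1q level was between 119 and 154 CPM in the HD libraries at 8 weeks and between 92.5 and 163 CPM at 13 weeks. The WT sums at 8 weeks were 78.5 CPM (striatum) and 75.1 CPM (cortex), and those at 13 weeks were 123 and 94.2 CPM. C1qc changed with age by -0.07 in HD mice (SE 0.146) and by 0.61 in WT mice (SE 0.194), on the log2 scale. These changes differed by -0.69 (SE 0.236, adjusted p = 0.362, edgeR).

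Over the whole list at 8 weeks, 12 of 32 genes had their 4 HD libraries above the WT library of their region, against 15.4% of all genes, and 2 had them below. On either side this made 14 of 32, against 30.6% of all genes. The 12 comprised C1qa, C1qb, C1qc, Tyrobp, Fcer1g, Fcgr3, Itgam, Ctss, Laptm5, Selplg, Olfml3 and Ptprc, and the 2 below were P2ry13 and Aif1. The share of Rn45s, which was higher in every HD library than in every WT library, moved with all comparisons of genotype, and its part in them was not tested. The summed markers of astrocytes, red blood cells and border macrophages were also above WT in the 4 HD libraries at 8 weeks. Those of astrocytes were at 4597 and 5160 CPM in striatum against 3863 CPM and at 6014 and 6055 CPM in cortex against 4922 CPM. Slc1a2 alone held 2569 and 2092 CPM of these sums in HD striatum against 1827 in WT, and 3712 and 3668 CPM in HD cortex against 2418 in WT. Red blood cell markers were at 403 and 1320 CPM against 336 CPM in striatum and at 642 and 1673 CPM against 609 CPM in cortex. Border macrophage markers were at 8.9 and 11.3 CPM against 7.03 CPM in striatum and at 19.1 and 17.2 CPM against 10.2 CPM in cortex. Their part was not tested either. The WT libraries were of 1 sex at each age. With sex as a term, C1qc stayed past the threshold at 8 weeks, as did Aif1 and Ctss at 13 weeks.

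At 13 weeks 2 of 32 genes were called between HD and WT mice, against 7.36% of all genes, and they went in opposite directions. Aif1, which encodes the actin-binding protein IBA1 that is widely stained as a microglia marker, was lower in HD mice. In striatum, Aif1 was at 13.1 and 12.5 CPM in HD and at 25.6 CPM in WT, and in cortex at 6.44 and 6.89 CPM in HD and at 14.6 CPM in WT. The HD replicates of a region lay close together and well below WT. This was a log2 fold change of -1.06 (SE 0.214, adjusted p = 0.0125, edgeR). At 8 weeks the HD libraries were at 13.5 and 13.0 CPM in striatum against 22.6 CPM in WT, and at 11.5 and 11.2 CPM in cortex against 13.4 CPM, with a log2 fold change of -0.50 (SE 0.217, adjusted p = 0.33, edgeR). Whether the difference between HD and WT changed with age was tested as the HD change less the WT change, which was -0.56 (SE 0.311, adjusted p = 0.656).

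Ctss, which encodes the lysosomal protease cathepsin S, was higher in HD mice at 13 weeks. In striatum, it was at 110 and 172 CPM in HD and at 64.3 CPM in WT, and in cortex at 98.0 and 68.6 CPM in HD and at 50.04 CPM in WT. Every HD library was above the WT library of its region, with a log2 fold change of 0.94 (SE 0.232, adjusted p = 0.0297, edgeR). At 8 weeks the HD libraries were at 70.9 and 95.4 CPM in striatum against 43.4 CPM in WT, and at 57.0 and 64.4 CPM in cortex against 41.6 CPM, with a log2 fold change of 0.73 (SE 0.231, adjusted p = 0.159, edgeR). With age, Ctss differed by 0.62 in HD mice (SE 0.187, adjusted p = 0.0812, edgeR), and with DESeq2 and without both libraries that stood apart it was called.

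The calls of Aif1 and Ctss were both lost without either WT library of 13 weeks. Without the WT striatum the log2 fold changes were -0.95 for Aif1 (adjusted p = 0.242) and 0.87 for Ctss (adjusted p = 0.319), and without the WT cortex -1.15 (adjusted p = 0.0863) and 1.01 (adjusted p = 0.177). Ctss was also lost without the first 13-week HD cortex (0.90, adjusted p = 0.0748) and without the first 8-week HD cortex (0.94, adjusted p = 0.05004).

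**Figure D3:**
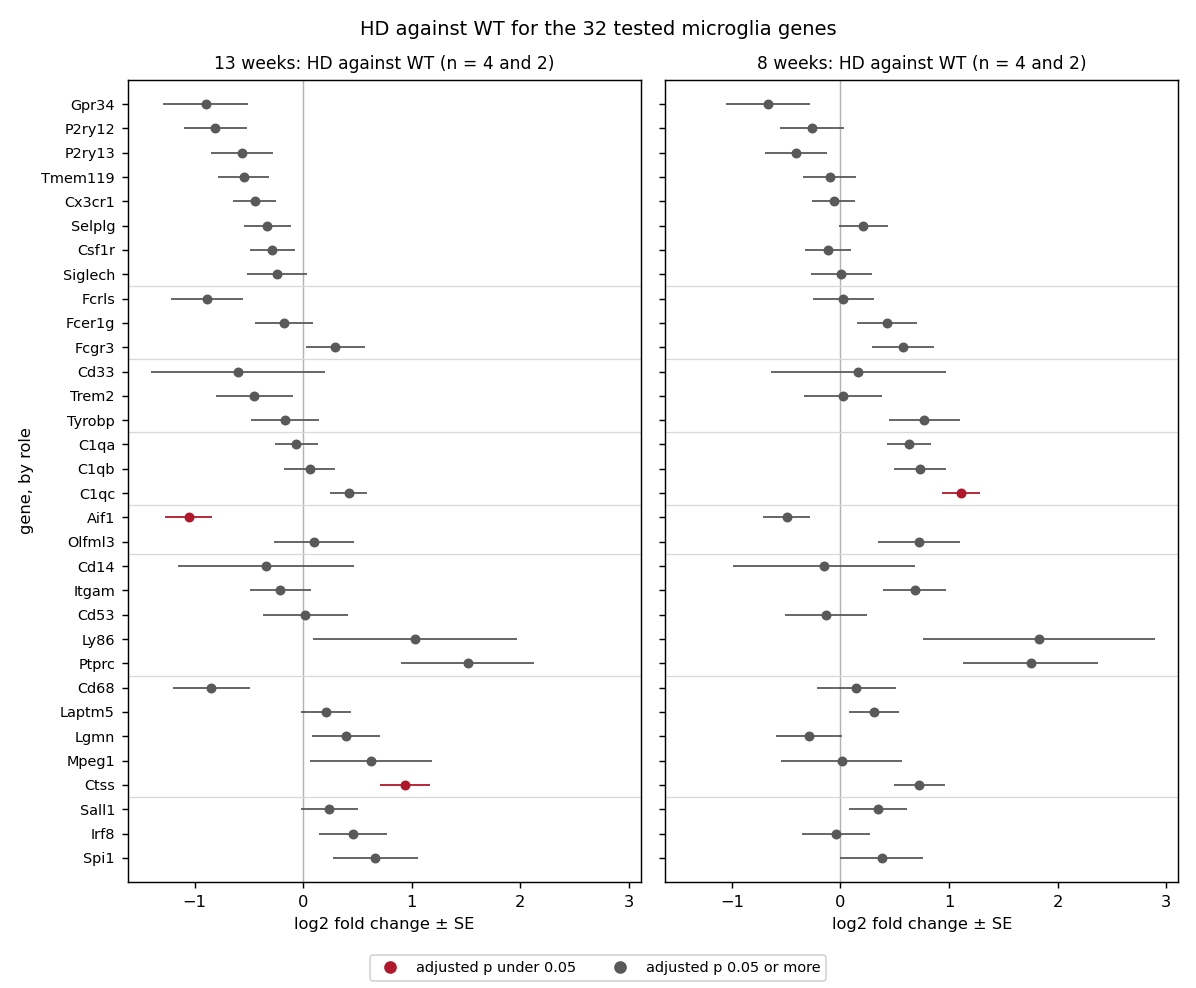
Log2 fold change of HD against WT of the 32 tested microglia genes at 13 weeks (left) and 8 weeks (right), over both regions with 4 HD and 2 WT libraries, grouped by role. Bars are standard errors from the edgeR fit and red points have an adjusted p under 0.05. Aif1 at -1.06 and Ctss at 0.94 are red at 13 weeks and C1qc at 1.11 is red at 8 weeks, and the 8 receptors at the top lie at or below -0.24 at 13 weeks.

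Of the other lysosomal genes, Laptm5, a lysosomal membrane protein, was at 38.1 and 56.2 CPM in the 13-week HD striatum, at 25.3 and 28.3 CPM in the 13-week HD cortex, at 38.1 and 40.6 CPM in the 8-week HD striatum and at 33.6 and 36.2 CPM in the 8-week HD cortex. The ages overlapped in striatum, and in cortex both 13-week libraries were below both 8-week ones. Lgmn, the asparaginyl endopeptidase legumain, was at 14.2 and 35.96 CPM in the 8-week HD striatum, where the higher value was that of the library rich in oligodendrocyte markers. Its log2 fold change with age in HD mice was 0.42 (SE 0.264, adjusted p = 0.388, edgeR), and it was called when that library was left out. Mpeg1, a pore-forming protein of phagocytes, ranged from 1.96 to 12.2 CPM, both within the 13-week HD striatum.

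Cd68, a lysosomal glycoprotein of macrophages, was higher in striatum than in cortex of HD mice. It was at 7.09 and 13.8 CPM in the 13-week striatum and at 3.18 and 4.42 CPM in the 13-week cortex. At 8 weeks it was at 20.3 and 8.4 CPM in striatum and at 5.87 and 7.4 CPM in cortex, so that the regions did not overlap within an age. Striatum exceeded cortex by a log2 fold change of 1.31 (SE 0.335, adjusted p = 0.0333, edgeR). The WT libraries lay the same way, with 19.3 CPM (13 weeks) and 15.2 CPM (8 weeks) in striatum and 6.6 and 5.02 CPM in cortex. Against WT at 13 weeks, Cd68 went in the opposite direction to Ctss, with all HD libraries below the WT library of their region. Its log2 fold change was -0.84 (SE 0.357, adjusted p = 0.182, edgeR). Those of Lgmn, Mpeg1 and Laptm5 were 0.39, 0.62 and 0.21, none called. Cd68 was the 1 of 32 called between the regions, against 10.6% of all genes, and the call was lost in 6 of 8 fits when single libraries were omitted, with log2 fold changes from 1.05 to 1.55, and with voom (1.18, adjusted p = 0.0635).

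Over the list, 23 of the 31 genes other than Fcrls were higher in HD striatum than cortex and 8 lower, with a median of 0.24 against 0.04 over all genes. The summed level of the 33 genes was between 679 and 901 CPM in the 6 striatal libraries and between 525 and 745 CPM in the 6 cortical ones. The oligodendrocyte markers moved with region too, at 3527 to 21640 CPM in striatum and 2438 to 4563 CPM in cortex, and their part was not tested.

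**Figure D4:**
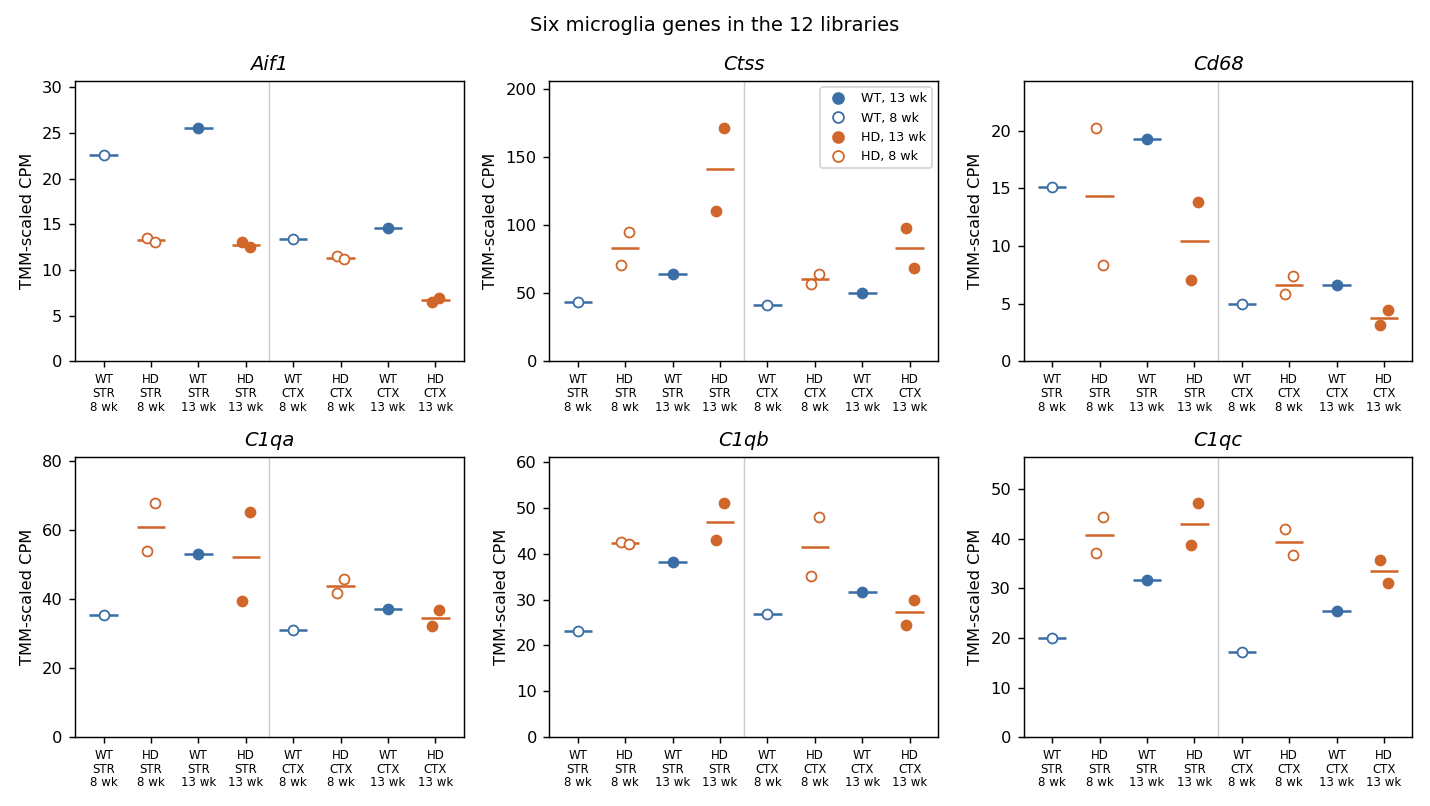
TMM-scaled CPM of Aif1, Ctss, Cd68, C1qa, C1qb and C1qc in each library by genotype, region and age, on axes that start at 0. Points are libraries and bars are group means. The HD libraries of Aif1 lie below, and those of Ctss above, the WT library of the same region and age in every case, the 8-week WT libraries are the lowest for C1qc, and Cd68 is higher in striatum than in cortex within each age and genotype.

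The 5 genes of innate sensing and adhesion were not called with age or genotype with edgeR, DESeq2 or voom. At an unadjusted p under 0.05 with edgeR, 1 of the 5 differed with age in HD mice, against 22.2% of all genes. Between HD and WT mice 1 did at 13 weeks and 2 at 8 weeks, against 22.3 and 13.9% of all genes. Itgam, the CD11b integrin chain, was at 5.78 and 9.31 CPM in the 13-week HD striatum, at 6.87 and 7.33 CPM in the 13-week HD cortex, at 11.3 and 10.01 CPM in the 8-week HD striatum and at 10.7 and 14.4 CPM in the 8-week HD cortex. The 13-week HD libraries of Itgam were all below the 8-week ones, and its WT libraries lay between 5.78 and 9.25 CPM. Cd53, a tetraspanin of leukocytes, lay between 2.03 and 5.6 CPM. Ptprc, the leukocyte common antigen CD45, was at 1.5 to 2.8 CPM in the HD libraries and at 0.423 to 1.05 CPM in the WT libraries, without overlap. It had 5 to 30 counts in a library, and its log2 fold changes of 1.52 at 13 weeks (SE 0.614, adjusted p = 0.162) and 1.75 at 8 weeks (SE 0.621, adjusted p = 0.216) did not pass the edgeR test. Cd14 and Ly86, which take part in sensing lipopolysaccharide, had at most 45 and 39 counts.

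None of the 3 lineage transcription factors was called with age or genotype with edgeR, DESeq2 or voom. At an unadjusted p under 0.05 with edgeR, 1 of the 3 differed with age in HD mice, against 22.2% of all genes. Irf8 was at 8.67 and 11.6 CPM in the 13-week HD striatum, at 11.3 and 6.27 CPM in the 13-week HD cortex, at 7.97 and 7.11 CPM in the 8-week HD striatum and at 5.55 and 4.57 CPM in the 8-week HD cortex. Within each region the 13-week HD libraries of Irf8 were above the 8-week ones, with a log2 fold change of 0.62 (SE 0.258, adjusted p = 0.189, edgeR). Sall1, which maintains microglial identity, was at 15.9 CPM in both 13-week HD striatal libraries, at 10.6 and 11.04 CPM in the 13-week HD cortex, at 8.9 and 14.6 CPM in the 8-week HD striatum and at 11.2 and 7.72 CPM in the 8-week HD cortex. Its WT libraries were at 8.16 to 13.6 CPM. The HD libraries of the ages overlapped in cortex and not in striatum. Over the 12 libraries Spi1, which encodes PU.1, lay between 2.58 and 7.32 CPM, and it differed by 0.01 with age in HD mice on the log2 scale (SE 0.306). Olfml3, a secreted matrix glycoprotein, was the lowest of the genes other than Fcrls in the HD age comparison, at -0.80 (SE 0.301, adjusted p = 0.152, edgeR).

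Other genes of the same pathways were read from fixed lists. Of 40 further microglia-enriched genes, 39 were tested and 0 were called with age in HD mice or between HD and WT mice at 13 or 8 weeks with edgeR. Over all genes 6.19, 7.36 and 2.1% were called in these 3 comparisons. At an unadjusted p under 0.05 there were 4, 2 and 0 of the 39, against 22.2, 22.3 and 13.9% of all genes. With voom 0 were called, and with DESeq2 2 were called with age in HD mice, Coro1a and Cst3. Their median change with age in HD mice was -0.19. Between the regions 3 of these 39 were called in HD mice, against 10.6% of all genes. Sparc (1.52) and Entpd1 (1.06), which degrades extracellular ATP, were higher in striatum, and Coro1a (-1.30), an actin regulator of leukocytes, was higher in cortex. Of the 28 genes that mark disease-associated microglia, such as Apoe, Axl and Lpl, 21 were tested and 0 were called with age or genotype with edgeR or voom. With edgeR 6.19% of all genes were called with age in HD mice, and 7.36 and 2.1% between HD and WT mice at 13 and 8 weeks. At an unadjusted p under 0.05 there were 4, 4 and 3 of the 21 in these comparisons, against 22.2, 22.3 and 13.9% of all genes. DESeq2 called Lpl and Timp2 at 13 weeks and B2m and Timp2 at 8 weeks between HD and WT mice. Clec7a, Itgax and Cst7, defining genes of that state, had at most 10 counts in any library.

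Of 9 genes for ligands of microglial receptors 8 were tested, and 2 were called with age in HD mice, against 6.19% of all genes, and between HD and WT mice at 13 weeks, against 7.36%. Both times they were Cx3cl1 and Cd200, which went in opposite directions, and the median of the 8 was -0.02 and 0.05. Cx3cl1, the fractalkine ligand of Cx3cr1, was at 210 and 158 CPM in the 13-week HD striatum and at 635 and 414 CPM in the 8-week HD striatum. In cortex it was at 310 and 290 CPM at 13 weeks and at 569 and 672 CPM at 8 weeks, and its WT libraries lay between 552 and 689 CPM. All 4 HD libraries at 13 weeks were thus below all others. Cx3cl1 fell with age in HD mice (log2 fold change -1.27, SE 0.165, adjusted p = 0.00355) and was lower than WT at 13 weeks (-1.40, SE 0.236, adjusted p = 0.00599) with edgeR. Striatal neuron markers moved with it, at 1386 and 1411 CPM in the 13-week HD striatum against 2309 to 7737 CPM in the other striatal libraries, as did cortical neuron markers, at 1441 and 1496 CPM in the 13-week HD cortex against 2592 to 2738 CPM in the other cortical libraries, and their part was not tested. Cd200, whose product restrains microglia, was higher, at 40.6 to 59.3 CPM in the HD libraries at 13 weeks, 17.1 to 33.7 CPM at 8 weeks and 22.1 to 33.3 CPM in WT. Its log2 fold changes were 0.84 with age in HD mice (SE 0.165, adjusted p = 0.0177) and 1.003 against WT at 13 weeks (SE 0.25, adjusted p = 0.0312) with edgeR, the latter not called with sex as a term. Csf1 and Il34, the ligands of Csf1r, were not called in either comparison.

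In the list of TREM2, DAP12 and Fc receptor signalling, 14 of 16 genes were tested. Dok3, an adaptor that restrains such signals, was at 0.516 to 2.57 CPM in the HD libraries at 13 weeks, against 4.51 to 8.55 CPM in those at 8 weeks and 4.86 to 7.13 CPM in WT. It fell with age in HD mice (log2 fold change -2.14, SE 0.435, adjusted p = 0.0199) and was lower than WT at 13 weeks (-2.00, SE 0.451, adjusted p = 0.0205) with edgeR. Pik3r1, a PI3K regulatory subunit that many cell types express, was higher than WT by 0.67 at 13 weeks and 0.88 at 8 weeks. Of the cytokine and interferon response genes, 16 of 26 were tested against WT. H2-K1 and H2-D1, class I histocompatibility genes, were higher than WT at 13 weeks by 1.30 (SE 0.357, adjusted p = 0.0476) and 1.38 (SE 0.369, adjusted p = 0.0461), and H2-K1 at 8 weeks by 1.67 (SE 0.374, adjusted p = 0.042). Ifit3, an interferon-induced gene, rose with age in HD mice by 1.09 (SE 0.269, adjusted p = 0.0421). The class I genes are close paralogs, and reads may have been split between them. The calls of H2-K1 and of Ifit3 were not made with voom or without both libraries that stood apart. Of the complement genes outside C1q, 0 were called with age or genotype with edgeR or voom, and DESeq2 called Serping1 at 8 weeks. With edgeR 6.19% of all genes were called with age in HD mice, and 7.36 and 2.1% between HD and WT mice at 13 and 8 weeks. At an unadjusted p under 0.05 there was 1 complement gene in each of these comparisons, against 22.2, 22.3 and 13.9% of all genes. In HD mice C4b was higher (1.75) and C1ra was lower (-2.77) in striatum than in cortex. These were the 2 called between the regions of 11 tested, against 10.6% of all genes.

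Over the 12 libraries the genes whose log2 CPM (CPM + 1) was most like that of Fcrls were Wdhd1 (Pearson r of 0.93), Ndufa12 (0.93), Tst (0.91), Tle2 (0.89) and Pusl1 (0.87), none of them in the list. Among the microglia genes the highest correlations with Fcrls were those of Cd53 (0.69) and Olfml3 (0.62), and Irf8 had the lowest (-0.60). The 12 points share regions and scaling and may share mice, and the correlations are given as a description.

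The surroundings of Fcrls on chromosome 3 were examined after the gene's values were seen. Of the 56 genes with no overlap between the 13-week and the 8-week libraries, 30 were higher and 26 lower at 13 weeks. On chromosome 3 there were 13 of them among 699 tested genes (1.86%), the largest share of the chromosomes, followed by chromosome 8 with 0.816%. Within 5 Mb of Fcrls 5 of 123 other tested genes (4.07%) were separated by age, against 0.381% of all genes. Within 10 Mb the count stayed at 5, of 219 genes (2.28%). Rbm46, an RNA-binding protein gene, lay at 2.88 to 4.9 CPM at 13 weeks and at 0.351 to 1.57 CPM at 8 weeks. Gon4l was also higher at 13 weeks, and Rps3a1, 1500004A13Rik and Clk2 were lower. Within 0.5 Mb of Fcrls none of the 7 tested neighbours (Lrba, Dclk2, Cd1d1, Etv3, Arhgef11, Lrrc71 and Pear1) was separated by age. These genes were higher or lower at 13 weeks in HD and WT mice alike, as the rule of no overlap over the 12 libraries requires.

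**Figure D5:**
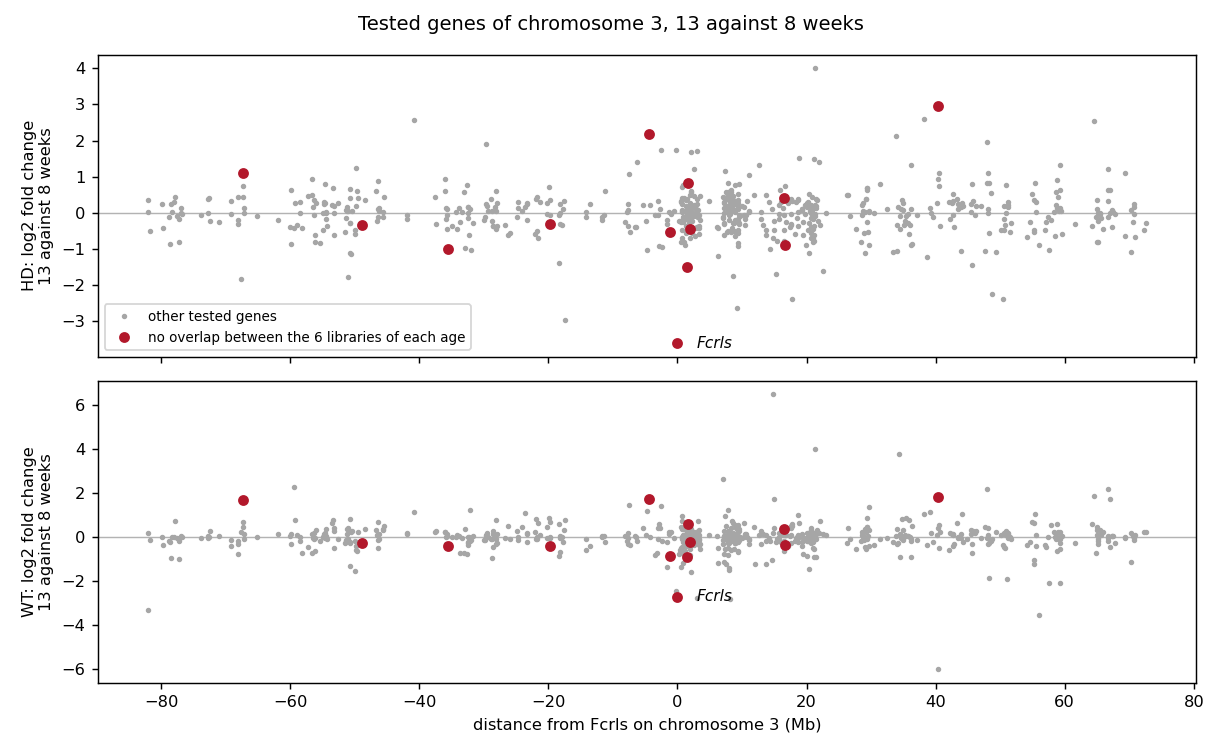
Log2 fold change from 8 to 13 weeks in HD mice (top) and WT mice (bottom) of the 699 genes of chromosome 3 tested over the 12 libraries, against their distance from Fcrls in Mb. Genes not tested in the fit of the HD libraries, such as Ccna1, have no point at the top. Red points are the 13 genes, Fcrls included, whose 6 libraries at 13 weeks do not overlap the 6 at 8 weeks, and grey points are the other genes. Fcrls is at -3.62 in HD and -2.72 in WT mice, and red points lie on both sides of 0.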

How the data were processed

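RNAseq libraries of R6/2 and WT striatum and cortex were analysed from 12 tables. The authors deposited raw counts per gene symbol, one table per library, with 23282 rows, 4306 of them at 0 throughout. Libraries were Lexogen QuantSeq 3′ libraries per the labels, and the submitters' processing notes name Bowtie2, bedtools and mm10. The annotation, counting rule and strand setting are not given in the sources used here. No molecular identifiers are stated, so that floors of 3 counts cover counting error only.

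Members and gene lists were chosen with earlier results of these data known. The adjusted p-values cover all genes tested, whereas the permutation p of Fcrls and the counts of called members make no allowance for that choice. Counts were scaled with TMM factors, filtered with filterByExpr (minimum count 10) and tested in R 4.3.3 with the robust quasi-likelihood test of edgeR 4.0.16, with Benjamini-Hochberg adjustment over all genes tested and a threshold of 0.05. The 8 HD libraries were fitted with region and stage, or with a mean for each region and stage, and all 12 libraries with region and the genotype-stage groups. Single regions were not tested against WT, where 1 library per age exists. Simulated counts with known changes, drawn without an effect of region, were run through the fits as a check of the code only. A log2 level is log2(CPM + 1). No replicates held identical counts. Gene positions came from GENCODE M21 on GRCm38, and promoter windows from RefSeq GRCm38.p6.

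Alternatives were DESeq2 1.42.0, upper-quartile factors, no filter, a minimum of 1 CPM throughout, leaving out single libraries, the replicate number as a block, voom (limma 3.58.1) with genotype, age and replicate number as a random block, sex as a term and raw CPM. Leaving out both libraries with markers of other tissue was chosen after seeing the data. Values per library are given for Fcrls, for every member called in a comparison and for at least 1 member of each role group with the highest mean CPM, and other members were named after their values were seen.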

Additional observations from a re-analysis of the deposited data

How the results depend on the processing

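Of the 32 microglia genes, the number called was 1 with age in HD mice, and 2 with DESeq2 and with both libraries that hold markers of other tissue left out (Ctss added in each). In striatum alone it was 1, with 0 under voom and 2 without both libraries (Lgmn added). Between striatum and cortex of HD mice it was 1, with 3 under DESeq2, 3 with no filter on low counts, 2 with upper-quartile factors and 0 under voom, and 2 with the replicate block (C1qa added). For the WT ages it was 1, with 0 under voom and 0 with sex as a term. Leaving out 1 library at a time gave 1 to 2 genes called with age in HD mice, 0 to 2 in striatum, 0 to 1 in cortex, 0 to 3 between the regions, 0 to 3 between HD and WT mice at 13 weeks, 0 to 1 at 8 weeks and 0 to 1 with age in WT mice. Differences of changes between regions and between genotypes gave 0 in every alternative run. No called gene changed direction in any alternative. The median change of the 31 genes other than Fcrls in HD striatum was -0.02 and 0.09 without both libraries, and their median between HD and WT mice at 13 weeks was -0.17 and 0.09 with sex as a term.

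The labels do not say that a replicate number marks the same mouse. From Xist and Y-linked counts the first HD replicates were male and the second female, so that in the HD fits the replicate block is also a block of sex. The correlations of the replicates' deviations from the group means lay between 0.0189 and 0.257, and the block changed no other count of called microglia genes. Over all genes, edgeR and DESeq2 called 891 and 1684 with age in HD mice, 23 and 447 in striatum, 85 and 547 in cortex, 0 and 15 for the difference of the regions' changes, 1528 and 2453 between the regions, 1082 and 1794 between HD and WT mice at 13 weeks, 309 and 674 at 8 weeks, 2 and 11 between the WT ages, and 17 and 222 for the difference of HD and WT changes. Without both libraries edgeR called 891 in striatum, 407 in cortex, 27 for the regions' difference, 1658 between HD and WT mice at 13 weeks and 202 for the HD and WT difference. With no filter it called 163 in striatum, 251 in cortex, 1 for the regions' difference, 3 between the WT ages, and 30 for the HD and WT difference. Upper-quartile factors gave 45 in cortex and 5 for the HD and WT difference, the replicate block gave 36 in striatum, voom and sex as a term each gave 0 with age in WT mice, and sex as a term gave 0 for the HD and WT difference. In fits that leave 1 library in a group, the lone library is assumed to vary like the others. Genes with few counts, such as Cd33, Ly86 and Ptprc, had standard errors that hide moderate changes.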
